A study of Caenorhabditis elegans with 10 samples.

Results

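In Caenorhabditis elegans many genes lie so close behind another gene on the same strand that they could belong to an operon, and 1927 such genes are described here through the first hours of recovery from starvation arrest. They were chosen by position alone. Each is a single gene of the deposited exon-bin annotation whose start lies 1 to 500 bases past the end of the nearest upstream gene unit on the same strand, and they make up 14.7% of the 13117 single genes among 13374 units. No expression value entered the choice made here. An operon annotation and counts of spliced leaders per gene were not analysed either, so the genes are called downstream genes rather than operon genes. The exon-bin annotation holds 13374 units, against 44968 genes in the wider deposited annotation, and 13226 of the units passed a filter on low counts. How its units were selected, and whether expression entered there, was not examined. Genes outside it could be neither downstream genes nor neighbours here. Each was compared with its own upstream neighbour in the same libraries.

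The worms were whole larvae of the first stage (L1) of the wild-type strain N2, with no other genotype in the study. Starved larvae gave 3 libraries of polyadenylated RNA, and larvae fed with E. coli HB101 at 25 mg/mL gave 2 at 1 h, 2 at 3 h and 3 at 6 h. The starved larvae came from eggs kept 24 h at 20 °C without food, a time that covers hatching and about 12 h of L1 arrest, and the fed larvae were the rest of such cultures. No starved larvae were sampled at the later times. Food and added time in culture therefore cannot be told apart in any difference between fed and starved larvae below. The design text calls replicates biological without naming separate cultures. A p value thus rests on the spread between these libraries, part of which may be technical.

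A worm operon is transcribed from a promoter in front of its first gene into a single long precursor RNA. The precursor is cut into separate messengers as each upstream gene receives its 3′ end and each downstream gene receives a short spliced leader, usually SL2, by trans-splicing, so the genes share transcription while each messenger has its own stability. Operons of this worm are known to hold many genes for growth, among them those for mitochondria, splicing, translation and transcription, and operon genes have been linked to recovery from growth arrest.

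The gaps of the downstream genes were not spread evenly over the permitted range. Their median was 154 bases, with quartiles at 98 and 308.5 bases, and 408 and 418 genes lay 51 to 100 and 101 to 150 bases behind their neighbour. In bins of 25 bases, 322 same-strand pairs had a gap of 76 to 100 bases and 325 a gap of 101 to 125 bases, against 102 at 51 to 75 bases and 113 at 126 to 150 bases. At the edge of the rule, 230 genes had a gap of 401 to 500 bases and 223 pairs of all kinds had a gap of 501 to 600 bases. Chromosome III had the highest share of downstream genes, 20.3% of its units, and chromosome X the lowest, 7.12%, with 18.2% on chromosome I, 16% on II, 14.4% on IV and 13% on V.

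**Figure D1:**
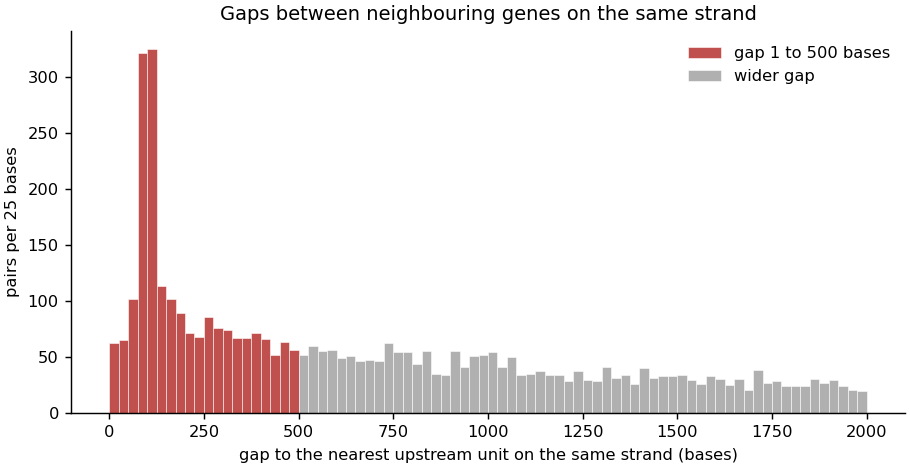
Number of same-strand neighbour pairs (y axis) against the gap between them in bases (x axis, bins of 25 bases up to 2000); red bars are gaps of 1 to 500 bases and grey bars wider gaps. The highest bars are 76 to 100 bases with 322 pairs and 101 to 125 bases with 325 pairs.

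The downstream genes formed 1467 chains in which each gene follows the one before it within the gap limit. Of these, 1140 held 2 genes, 233 held 3, 67 held 4, 17 held 5, 8 held 6 and 2 held 7. A chain begins with an upstream unit that is no downstream gene itself, called a first gene below, and 460 downstream genes were also the upstream neighbour of another. In 60 pairs the upstream unit merged several overlapping genes, and 336 pairs touched a gene on the other strand. The start of 6 downstream genes lay inside another unit on the same strand. The sources used here do not give the strand setting of the counting, so a gene that overlaps one on the other strand is uncertain.

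Depth was high for all libraries, with 19163997 to 38607167 counts in gene bins per library, and the downstream genes took 10.3% to 11.7% of them. All levels below are CPM, counts scaled to a common library size with edgeR's TMM factors. Markers of intestine, body wall muscle, pharynx and neurons were present in every library. The 4 intestine markers summed to 1368 to 1746 CPM over all libraries. The 2 body wall muscle markers were lower in every fed library than in any starved one, at 2699 to 3584 CPM in starved larvae, 1696 to 2147 CPM at 1 h, 1162 to 1446 CPM at 3 h and 1162 to 1581 CPM at 6 h. The 3 pharynx markers summed to 1724 to 3745, 1818 to 2483, 1249.8 to 1315 and 1144 to 1796 CPM at the same points, and the 4 neuron markers to 696 to 1059, 668 to 776, 557 to 591 and 388 to 611 CPM. The single hypodermis marker of 3 listed that the files hold lay at 1.10 to 4.57 CPM. Yolk protein genes of adults summed to 1.08 to 3.08 CPM in every library, whereas oocyte and eggshell markers, 3 of which (oma-1, egg-3 and puf-5) are themselves downstream genes, summed to 28.8 to 40.0 CPM in starved larvae, 42.2 to 46.6 CPM at 1 h, 16.2 to 19.0 CPM at 3 h and 9.63 to 18.4 CPM at 6 h. Their part in the results below was not tested. In whole larvae, fewer cells of a type and less RNA per cell cannot be told apart.

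The first question was how the downstream genes differ between fed and starved larvae. More of them rose than fell at each time, although with library totals alone the balance turns at 3 h and 6 h. At 1 h 482 were higher and 300 lower than in starved larvae (edgeR quasi-likelihood test, adjusted p under 0.05, 1915 tested), which is 25.2% and 15.7%, beside 20.4% higher and 18.7% lower among all 13226 units tested. At 3 h 556 were higher and 322 lower, or 29.0% and 16.8%, beside 21.9% and 19.7% of all units. At 6 h 650 were higher and 381 lower, or 33.9% and 19.9%, beside 27.0% and 25.0% of all units. In either direction 40.8%, 45.8% and 53.8% were called at the 3 times, beside 39.0%, 41.6% and 52.0% of all units. Fed and starved libraries did not overlap in 1220, 1268 and 1088 downstream genes (63.7%, 66.2% and 56.8%), beside 61.6%, 62.6% and 55.3% of all units. Changes of more than 2-fold were found in 262 downstream genes upward and 162 downward at 1 h, or 13.7% and 8.46%, beside 11.4% and 11.3% of all units. At 3 h they were 316 and 202 (16.5% and 10.5%, all units 12.2% and 13.4%), and at 6 h 346 and 223 (18.1% and 11.6%, all units 14.6% and 15.4%).

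These counts rest on the scaling and on the small groups at 1 h and 3 h. The median log2 fold change of the downstream genes was 0.09 at 1 h, 0.12 at 3 h and 0.14 at 6 h, beside -0.00, -0.02 and -0.04 over all units. With library totals alone the median of all units shifts to 0.11, -0.26 and -0.37, and the counts become 549 higher and 231 lower at 1 h, 401 against 454 at 3 h and 432 against 582 at 6 h, while with upper quartile scaling they are 412 and 378, 483 and 402, and 528 and 513. Relative to all units, the median of the downstream genes stood 0.09, 0.14 and 0.18 higher at the 3 times, and 0.09 to 0.10, 0.13 to 0.14 and 0.18 higher under the other scalings. The count of lower genes at 1 h is 192 without replicate 1 and 162 without replicate 2 of that time, and at 3 h it is 201 without replicate 1 and 190 without replicate 2.

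Calls of rises were more frequent at short gaps. Of the 1126 tested with a gap of 1 to 200 bases, 26.6%, 32.3% and 37.7% were higher at 1 h, 3 h and 6 h and 14.4%, 13.6% and 16.5% were lower. Of the 789 with a gap of 201 to 500 bases, 23.2%, 24.3% and 28.6% were higher and 17.5%, 21.4% and 24.7% lower. Of 1401 first genes 28.1%, 29.1% and 37.3% were higher and 17%, 18.8% and 20.6% lower. Of the 9653 other single genes 18.2%, 19.2% and 23.8% were higher and 19.5%, 20.5% and 26.8% lower. The 4 classes also differ in level, with a median of the average log2 CPM of 4.33, 3.58, 4.71 and 3.66 in this order. The shares were not matched for level. No test of these differences in share was made, because neighbouring genes are not independent.

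**Figure D2:**
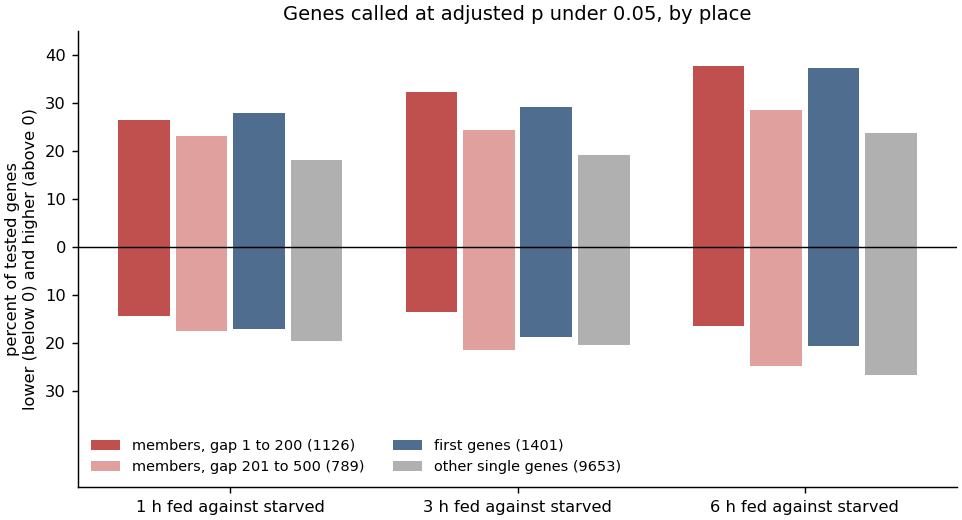
Percent of tested genes higher (above 0) and lower (below 0) than in starved larvae at adjusted p under 0.05, at 1 h, 3 h and 6 h fed (x axis), for downstream genes with gaps of 1 to 200 and 201 to 500 bases, first genes and other single genes (number tested in the legend). At 6 h the bars above 0 reach 37.7%, 28.6%, 37.3% and 23.8%.

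By course in time, 383 downstream genes were higher at all 3 times and 192 lower at all 3, which is 20.0% and 10.0% of those tested, beside 14.4% and 12.2% of all units. A further 136 were called higher at 3 h and 6 h but not at 1 h (7.10%, all units 5.44%), and 99 at 6 h alone (5.17%), close to the 5.20% of all units. Another 687, or 35.9%, were called at no time, beside 37.1% of all units. The 12 downstream genes that did not pass the filter on low counts had 1 to 52 counts over all 10 libraries.

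Large changes are named here for genes that have a symbol, reach an average log2 CPM of at least 4 and show no overlap between groups. At 1 h the 5 largest rises were those of pho-1, pmp-1, acox-1.5, sdz-8 and folt-2. Acid phosphatase gene pho-1, which is active in the intestine, gave 32.5, 20.3 and 25.5 CPM in starved larvae, 253 and 268 at 1 h, 246 and 213 at 3 h, then 179.5, 182 and 186 at 6 h. Every fed library stood above every starved one, and the log2 fold change was 3.33 ± 0.19 at 1 h (adjusted p = 1.92e-08), 3.14 ± 0.19 at 3 h and 2.81 ± 0.18 at 6 h. It overlaps a gene on the other strand, so its level is uncertain. For acox-1.5, an acyl-CoA oxidase gene of peroxisomal fatty acid breakdown, the values were 26.8, 20.8 and 23.3 CPM in starved larvae, 173 and 174 at 1 h, 43.7 and 41.7 at 3 h, then 55.5, 59.9 and 77.6 at 6 h. The rise at 1 h (2.88 ± 0.18 on the log2 scale, adjusted p = 3.65e-08) was followed by lower but still raised values. Gene sdz-8 had 10.8, 10.2 and 18.1 CPM in starved larvae, 90.9 and 93 at 1 h, 11.4 and 9.58 at 3 h, then 16.1, 8.42 and 7.57 at 6 h. It was high at 1 h alone, with a log2 fold change of 2.82 ± 0.30 (adjusted p = 4.33e-06) there and no call at 3 h or 6 h. The peroxisomal ABC transporter gene pmp-1 rose by 2.99 ± 0.18 and the folate transporter gene folt-2 by 2.79 ± 0.23 at 1 h on the same scale.

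At 3 h the 5 largest were gst-24, clec-42, psme-3, hprt-1 and pho-1. The glutathione S-transferase gene gst-24 had 18, 21.2 and 17 CPM in starved larvae, 28 and 28.7 at 1 h, 212 and 218 at 3 h, then 59.7, 90.4 and 62 at 6 h. Its 3 h libraries stood far above all others, at 3.52 ± 0.19 on the log2 scale against starved larvae (adjusted p = 1.22e-08). Its smaller rise at 1 h, 0.59 ± 0.19, loses its call with upper quartile scaling and without either 1 h library or starved replicate 1 or 3. For hprt-1, which salvages purines, the values were 18.7, 21.1 and 21.8 CPM in starved larvae, 123 and 122 at 1 h, 187 and 177 at 3 h, then 130.3, 146 and 113 at 6 h. Gene psme-3, for a proteasome activator subunit, had 15.8, 11 and 14.3 CPM in starved larvae, 42.9 and 41.8 at 1 h, 116 and 129.9 at 3 h, then 79.5, 93.1 and 77.7 at 6 h. Both were higher in every fed library than in any starved one and highest at 3 h.

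At 6 h the 5 largest rises were those of fkb-5, clec-42, gale-1, dnj-2 and pho-1. The gene fkb-5, for a peptidyl-prolyl isomerase of the FKBP family, had 9.39, 10.0 and 11.1 CPM in starved larvae, 13.7 and 11.6 at 1 h, 38.7 and 42.4 at 3 h, then 250.4, 255 and 190.3 at 6 h. It was the largest rise of the named downstream genes, 4.51 ± 0.18 at 6 h on the log2 scale (adjusted p = 2.91e-10), and nearly all of it came after 1 h. For gale-1, the UDP-galactose epimerase gene, the libraries gave 22.8, 22.3 and 26.7 CPM in starved larvae, 70.8 and 70.8 at 1 h, 156 and 167 at 3 h, then 179.7, 218 and 204 at 6 h. Its log2 fold changes were 1.57 ± 0.16, 2.75 ± 0.16 and 3.07 ± 0.15. Rises at 6 h were 3.38 ± 0.22 for the lectin gene clec-42 and 2.85 ± 0.20 for the DnaJ co-chaperone gene dnj-2, whose bins overlap a gene on the other strand.

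The 5 largest falls at 1 h were those of nhj-1, grd-3, sshk-1, ttr-27 and tspo-1. The end-joining repair gene nhj-1 had 104, 77.8 and 117 CPM in starved larvae, 12.4 and 10.3 at 1 h, 23.1 and 22.2 at 3 h, then 37.7, 29.7 and 35.5 at 6 h, with overlap on the other strand. It was lowest at 1 h (-3.13 ± 0.22 on the log2 scale, adjusted p = 1e-07) with 3 h and 6 h libraries between those and the starved ones. The hedgehog-related gene grd-3 had 129, 187 and 139.8 CPM in starved larvae, 20.3 and 19.7 at 1 h, 21.8 and 30.9 at 3 h, then 59.5, 40.5 and 65.5 at 6 h. Its course was the same. For tspo-1, a gene of the mitochondrial outer membrane translocator family, the fall at 1 h was -1.87 ± 0.18.

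At 3 h the largest falls were those of cbp-3, grd-3, ttr-15, gst-3 and nhj-1, and at 6 h those of cbp-3, gst-3, pgp-5, fipr-4 and bca-1. The gene cbp-3 had 166, 102 and 159.8 CPM in starved larvae, 76 and 64.7 at 1 h, 18.3 and 19.5 at 3 h, then 36.6, 22 and 28.8 at 6 h. Its fall was -2.91 ± 0.26 at 3 h and -2.29 ± 0.22 at 6 h on the log2 scale (adjusted p = 8.57e-07 and 8.71e-07). The beta carbonic anhydrase gene bca-1 had 171, 132 and 184 CPM in starved larvae, 55.3 and 61.2 at 1 h, 38.2 and 38.8 at 3 h, then 40.3, 32 and 46.8 at 6 h. Its fed libraries lay below every starved one at all 3 times. For the glutathione S-transferase gene gst-3 the fall at 6 h was -2.24 ± 0.23, in the opposite direction to gst-24.

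Gene families were followed as lists of symbols, and the other tested members of each list are given beside the downstream genes whose calls are counted. Of 59 mitochondrial ribosomal protein genes in the files 20 were downstream genes (33.9%), and 11 of them were higher and 2 lower at 1 h, 16 against 2 at 3 h and 17 against 2 at 6 h, with a median log2 fold change of 1.28 at 6 h. The 39 others of the list gave 31 higher and 1 lower, 35 and 1, and 36 and 1, with a median of 1.40 at 6 h. Small-subunit gene mrps-30 had 55.1, 46 and 34 CPM in starved larvae, 158 and 148 at 1 h, 149 and 135 at 3 h, then 119, 139.6 and 123 at 6 h. It rose by 1.77 ± 0.19 at 1 h on the log2 scale. Another small-subunit gene, mrps-5, rose late, with 102, 110.2 and 82.4 CPM in starved larvae, 99.4 and 101 at 1 h, 136 and 134 at 3 h, then 163, 196 and 143 at 6 h. At 6 h it was up by 0.77 ± 0.16 (adjusted p = 0.00103).

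Of 67 genes for RNA polymerase and general transcription 26 were downstream genes (38.8%), with 11 higher and 4 lower at 1 h, 12 against 2 at 3 h and 13 against 1 at 6 h. The 41 others gave 9 higher and 3 lower, 12 and 3, and 16 and 3. Gene rpb-2, for the second-largest subunit of RNA polymerase II, had 62, 65.1 and 42 CPM in starved larvae, 96.3 and 124 at 1 h, 111 and 101 at 3 h, then 91.4, 138 and 106 at 6 h. It rose by 0.97 ± 0.22 at 1 h and 0.99 ± 0.20 at 6 h. The mediator subunit gene mdt-15 had 90.7, 121 and 89.1 CPM in starved larvae, 53.3 and 74.8 at 1 h, 103 and 106 at 3 h, then 65, 122 and 93.7 at 6 h. It was called lower at 1 h, a call that is lost with library totals and without starved replicate 1 or 2, 1 h replicate 1, either 3 h library or 6 h replicate 3. Of 61 splicing factor genes 18 were downstream genes (29.5%), with 8 higher and 1 lower at 1 h, 10 against 0 at 3 h and 16 against 0 at 6 h. The 43 others gave 27 higher and 2 lower, 30 and 1, and 32 and 1. The SR protein gene rsp-6 had 105, 108 and 124 CPM in starved larvae, 292 and 266 at 1 h, 236 and 259 at 3 h, then 185, 212 and 249.9 at 6 h. Every fed library stood above the starved ones.

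Of 29 aminoacyl-tRNA synthetase genes 10 were downstream genes (34.5%), with 4, 6 and 7 higher at 1 h, 3 h and 6 h and 0 lower at any time. The 19 others gave 17, 14 and 17 higher and also 0 lower. The median log2 fold changes of the downstream synthetase genes were 0.41, 0.59 and 0.59, and those of the others 0.88, 1.31 and 1.22, a difference that was not tested. The glycine enzyme gene gars-1 had 86.6, 68.2 and 76.4 CPM in starved larvae, 147 and 155 at 1 h, 171 and 159 at 3 h, then 175, 220.2 and 182 at 6 h. Of 35 translation factor genes 7 were downstream genes, with 5 higher at each time and 0, 0 and 1 lower, and of the 28 others 22, 25 and 25 were higher and 0 lower. Elongation factor gene eef-1B.2 gave 262, 264 and 219 CPM in starved larvae, 531 and 467 at 1 h, 661 and 671 at 3 h, then 467, 700.2 and 478 at 6 h. Initiation factor gene eif-2gamma rose by 1.14 ± 0.18, 1.77 ± 0.18 and 1.72 ± 0.17 on the log2 scale. By contrast 4 of 68 cytosolic ribosomal protein genes were downstream genes (5.88%), of which 0 were higher and 1 lower at 1 h while all 4 were higher at 3 h and at 6 h. Of the 64 others 0 were higher and 4 lower at 1 h, and 44 and 61 were higher at 3 h and 6 h with 0 lower.

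Of 22 mitochondrial import genes 6 were downstream genes, with 3 higher and 1 lower at 1 h, 4 against 0 at 3 h and 5 against 0 at 6 h. The 16 others gave 8 higher and 2 lower, 9 and 2, and 10 and 3. Inner membrane import gene timm-17B.1 had 48, 46.8 and 56.4 CPM in starved larvae, 154 and 135 at 1 h, 179 and 182 at 3 h, then 143, 159.9 and 185 at 6 h. All its fed libraries lay above the starved ones. Of 44 genes of oxidative phosphorylation 11 were downstream genes, with 0 higher and 1 lower at 1 h, 4 against 0 at 3 h and 6 against 0 at 6 h. The 33 others gave 3 higher and 7 lower, 5 and 4, and 12 and 3. The downstream genes' median log2 fold change of 0.16 at 3 h turns to -0.09 with library totals alone. The most abundant of them was cyc-1, cytochrome c1 of complex III, with 628, 1346 and 588 CPM in starved larvae, 564 and 642 at 1 h, 537 and 573 at 3 h, then 509, 714 and 709.8 at 6 h. It was called at no time, and its bins overlap the other strand. Of 124 vesicle traffic genes 36 were downstream genes (29.0%), with 6 higher and 3 lower at 1 h, 8 against 2 at 3 h and 17 against 3 at 6 h. The 88 others gave 21 higher and 15 lower, 24 and 9, and 40 and 9. The downstream genes' median of 0.23 at 3 h becomes -0.01 with library totals alone.

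Of 203 nuclear hormone receptor genes 23 were downstream genes (11.3%), with 1 higher and 8 lower at 1 h, 1 against 13 at 3 h and 1 against 13 at 6 h. Their median log2 fold change was -0.69 at 6 h. The 178 others tested gave 29 higher and 54 lower, 22 and 52, and 25 and 62, with a median of -0.30 at 6 h. Receptor gene nhr-8 had 49.4, 45.6 and 48.8 CPM in starved larvae, 46.2 and 58.2 at 1 h, 31.8 and 28.1 at 3 h, then 26.8, 25.6 and 40.1 at 6 h. It was called lower at 3 h, a call lost without either 3 h library, and at 6 h. Gene nhr-87 fell by 1.06 ± 0.18 at 1 h. Of 105 cuticle collagen genes 11 were downstream genes, with 0 higher and 4 lower at 1 h, 2 against 1 at 3 h and 1 against 3 at 6 h. Their median log2 fold change was -0.85 at 1 h, 0.68 at 3 h and -0.50 at 6 h. The 88 other collagen genes tested gave 1 higher and 29 lower, 14 and 18, and 18 and 29, with medians of -0.65, -0.05 and -0.58. Neuropeptide and insulin-like peptide genes numbered 117, of which 3 were downstream genes, with 0 higher and 3 lower at 6 h. The 114 others gave 11 higher and 67 lower. Chemoreceptors numbered 329, of which 24 were downstream genes, although that symbol pattern also catches odr-8, which codes for a protease. Of the 23 tested, 4 were higher and 5 lower at 6 h, and of the 293 others tested 21 and 77.

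Ubiquitin and related conjugation, with 23 downstream genes among 97, had 4 higher and 6 lower at 1 h, 4 against 7 at 3 h and 7 against 7 at 6 h, and the 72 others tested 19 against 13, 17 against 14 and 24 against 16. Here skr-1, a core component of SCF ubiquitin ligases, fell and had 333, 462 and 416 CPM in starved larvae, 240.1 and 237 at 1 h, 244 and 276 at 3 h, then 310.2, 245 and 282 at 6 h. Its bins overlap the other strand, and its calls are lost without 1 h replicate 2, either 3 h library and 6 h replicate 2 at their times. Proteasome genes gave 5 downstream genes of 29, with 0 higher and 0 lower at 1 h, 3 against 1 at 3 h and 4 against 1 at 6 h. Of the 24 others 16, 24 and 24 were higher and 0 lower. Gene pbs-5 had 79.7, 71 and 96.5 CPM in starved larvae, 88.1 and 79.6 at 1 h, 154 and 155 at 3 h, then 204, 234 and 207 at 6 h. Cell division gave 6 of 93, with 3 higher and 0 lower at 6 h, and the 86 others tested gave 37 and 10. Among the downstream genes of this list, the replicative helicase genes mcm-4 and mcm-5 rose at 6 h by 1.51 ± 0.18 and 1.47 ± 0.17. C-type lectins (18 of 109), chaperones (7 of 67), nucleolar and ribosome biogenesis (5 of 30) and vacuolar ATPase (4 of 19) gave 6 higher and 3 lower, 4 and 1, 3 and 0, and 2 and 0 at 6 h. The 87, 60, 25 and 15 others of these lists gave 27 and 23, 41 and 3, 20 and 0, and 9 and 0.

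The second question was whether a downstream gene follows its upstream neighbour. Over the 10 libraries the log2 CPM of the 2 genes had a median Pearson's r of 0.313 in the 1909 pairs with both genes tested, with quartiles of -0.15 and 0.69. Of these pairs, 298 (15.6%) had an r above 0.8 and 624 (32.7%) an r below 0. Same-strand neighbours with wider gaps had a median of 0.085 over 10916 pairs, with 6.43% above 0.8 and 45.2% below 0. Both genes of a pair are read from the same libraries and the libraries fall into 4 groups, so r is a description of shared course and carries no p.

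Likeness was higher at the shortest gaps, with little order between 201 and 2000 bases. The median r was 0.416 at gaps of 1 to 100 bases and 0.328 at 101 to 200, against 0.201 at 201 to 300 and 0.232 at 301 to 500. Beyond the limit of 500 bases it went on at 0.234 up to 1000 and 0.203 up to 2000 bases, and then fell to 0.103 up to 5000, 0.045 up to 20000 and 0.019 above that. On either side of the limit, pairs 401 to 500 and 501 to 600 bases apart had medians of 0.236 (228 pairs) and 0.279 (216 pairs). Neighbours on opposite strands differed by their arrangement: 488 pairs lying head to head within 500 bases had a median of 0.435, and 740 lying tail to tail 0.029. Levels bear on this measure, and with both genes at an average log2 CPM of at least 4 the medians were 0.427 for 695 downstream genes, 0.117 for wider pairs, 0.518 head to head and 0.042 tail to tail.

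**Figure D3:**
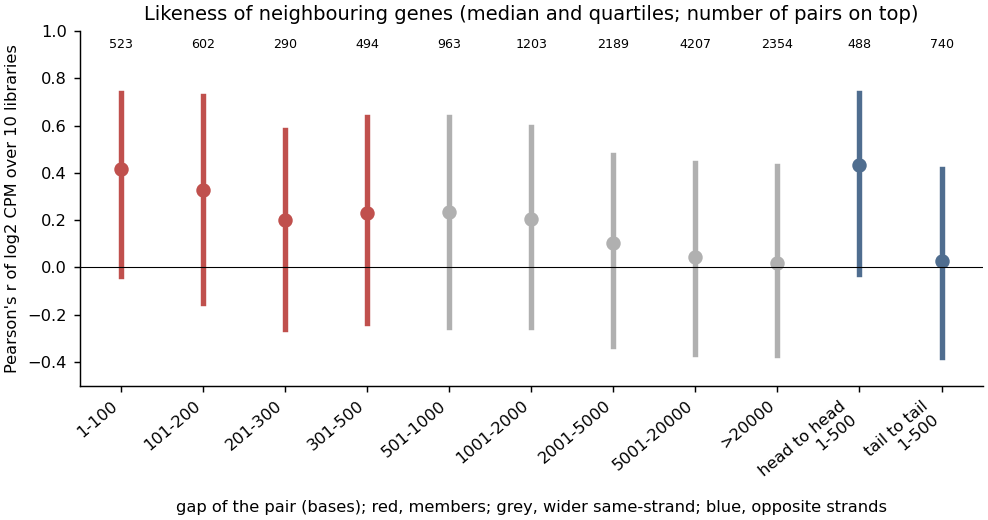
Median (point) and quartiles (bar) of Pearson's r between the log2 CPM of neighbouring genes over 10 libraries (y axis) by gap in bases (x axis), with the number of pairs on top; red, downstream genes and their upstream neighbours; grey, wider same-strand pairs; blue, opposite strands. The median is 0.416 for gaps of 1 to 100 bases, 0.019 above 20000 bases and 0.435 for head-to-head neighbours.

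Where both genes of a pair were called, they mostly went the same way. At 1 h both were called in 415 pairs, of which 231 were both higher, 99 both lower and 85 opposite, so that 79.5% agreed in direction, and among wider pairs 57.3% did. At 3 h the numbers were 268, 116 and 96 (80.0%, wider pairs 56.8%), and at 6 h 349, 138 and 164 (74.8%, wider pairs 57.3%). At gaps of 1 to 100 bases the share was 87.6%, 89.3% and 83.0%. In other pairs just 1 of the genes was called. At 6 h this was the downstream gene in 377 pairs (19.7%, wider pairs 24.7%) and the upstream one in 457 (23.9%, wider pairs 24.2%), and neither was called in 424 (22.2%, wider pairs 24.4%).

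A direct test asked whether the ratio of the downstream gene to its upstream neighbour changed after feeding (limma on the difference of log2 CPM, fitted over 13079 same-strand pairs). It changed at some time in 965 of 1909 pairs in the joint test, or 50.6%, beside 56.0% of all same-strand pairs. By time it changed in 644 pairs at 1 h (33.7%, all pairs 37.4%), 748 at 3 h (39.2%, all pairs 40.9%) and 915 at 6 h (47.9%, all pairs 50.4%). The 1 h count is 394 without replicate 1 and 374 without replicate 2 of that time, and the 3 h count 471 and 482 without its replicates 1 and 2. The ratio was higher in 294 and lower in 350 pairs at 1 h, 359 against 389 at 3 h and 422 against 493 at 6 h, with median log2 changes of -0.11, -0.07 and -0.11, against 0.01, -0.00 and 0.01 in wider pairs. Over all 3 times, the root mean square difference between the log2 fold changes of the 2 genes had a median of 0.780, against 0.996 in wider pairs.

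**Figure D4:**
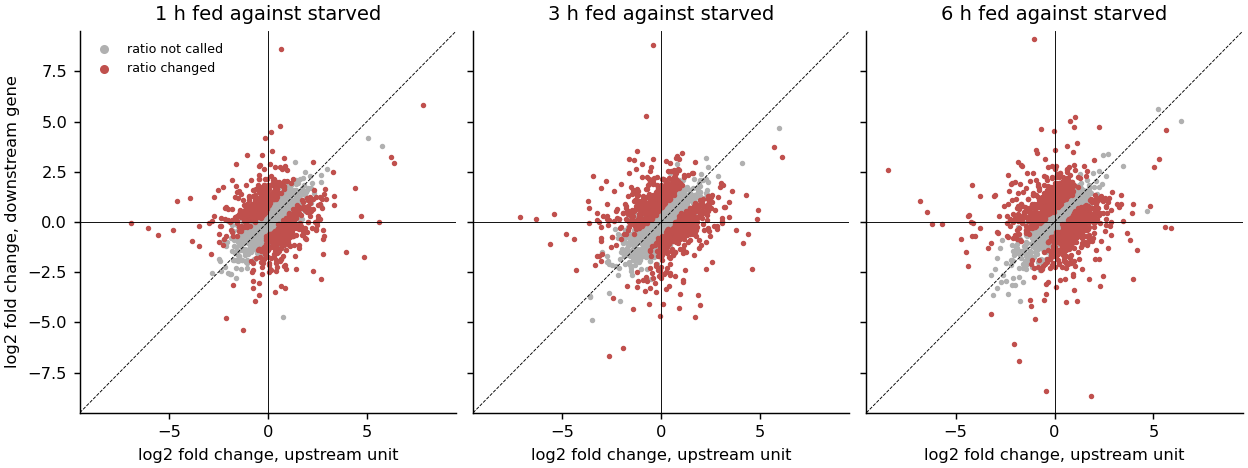
Log2 fold change of each downstream gene (y axis) against that of its upstream neighbour (x axis) at 1 h, 3 h and 6 h fed against starved larvae, 1909 pairs in each panel; red points are pairs whose ratio changed at adjusted p under 0.05 (644, 748 and 915 pairs) and the dashed line marks equal change. Points lie along the line and also far from it in both directions.

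Pairs that moved together with changes of at least 2-fold included genes of quite different kinds. The 8 pairs with the smallest difference in course, among those with symbols and an average log2 CPM of at least 4 in both, were tmem-208 after ran-4, set-19 after set-20, lsm-8 after sqd-1, mrpl-50 after cct-2, rplp-1 after rpl-27A, prx-10 after mrps-26, rnp-3 after rnp-2 and elac-2 after timm-17B.1. All 8 have gaps of 24 to 124 bases, and the gap entered their choice through the limit that defines downstream genes. Short gaps were common at this level. Of 695 downstream pairs with both genes at an average log2 CPM of at least 4, 506 had gaps of 1 to 200 bases. These 695 were not limited by symbol or size of change. Whether the 8 pairs have shorter gaps than others open to choice was not tested. Since the 8 pairs were chosen for likeness, their likeness is a description.

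The tmem-208 gene, for an endoplasmic reticulum membrane protein, lies at chromosome I, 8592083 to 8592917, plus strand of the WS210 annotation, 95 bases after ran-4, which codes for the nuclear import factor of Ran. Its levels were 38.4, 28.8 and 38.7 CPM in starved larvae, 64.6 and 61.3 at 1 h, 90.5 and 86.7 at 3 h, then 92.4, 79.3 and 95.5 at 6 h. Those of ran-4 were 61.9, 46.5 and 71.9 CPM starved, 122 and 117 at 1 h, 157 and 159.6 at 3 h, then 173, 121 and 188 at 6 h. Both genes were higher in every fed library than in any starved one, with log2 fold changes at 6 h of 1.34 ± 0.15 and 1.42 ± 0.19. Their ratio changed by -0.07 on the log2 scale (95% interval -0.47 to 0.32).

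Just 24 bases separate mrpl-50, a mitochondrial large-subunit gene, from cct-2, a subunit gene of the cytosolic chaperonin (chromosome II, 8929759 to 8930857, plus strand). The downstream gene had 22.6, 14.9 and 20.7 CPM in starved larvae, 41.5 and 39.8 at 1 h, 51.7 and 47.4 at 3 h, then 67.7, 67.7 and 35.2 at 6 h. The upstream gene cct-2 had 152, 163 and 106 CPM in starved larvae, 343 and 342 at 1 h, 427 and 393 at 3 h, then 376, 577 and 387 at 6 h. Both were higher in every fed library than in any starved one, by 1.55 ± 0.23 and 1.67 ± 0.21 at 6 h, and the ratio changed by -0.16 (95% interval -0.77 to 0.45).

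A pair of ribosomal protein genes moved late. The acidic stalk protein gene rplp-1, 92 bases after rpl-27A, had 1208, 551 and 1392 CPM in starved larvae, 1424 and 1017 at 1 h, 2419.8 and 2389 at 3 h, then 3367, 3883 and 2151 at 6 h. The upstream gene rpl-27A had 1651, 1602 and 2119.5 CPM in starved larvae, 2167 and 1533 at 1 h, 3565 and 3949 at 3 h, then 4317, 5457 and 3621 at 6 h. At 1 h the groups overlap for both genes, whereas at 3 h and 6 h fed libraries stand above starved ones, by 1.20 ± 0.33 and 1.58 ± 0.31 for rplp-1 and by 1.07 ± 0.23 and 1.32 ± 0.22 for rpl-27A. Bins of rplp-1 overlap a gene on the other strand. Among the other like pairs, rnp-3 and rnp-2 code for related snRNP proteins, lsm-8 for a protein of the U6 snRNP behind the hnRNP gene sqd-1, prx-10 for a peroxisome assembly factor, and set-19 and set-20 for SET domain proteins. At 6 h their downstream genes rose by 1.18 ± 0.15 (rnp-3), 1.22 ± 0.19 (lsm-8), 1.00 ± 0.17 (prx-10) and 1.84 ± 0.15 (set-19).

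Textbook operon pairs behaved in different ways. The acetylcholine receptor subunit genes deg-3 and des-2, whose products assemble into 1 channel, are 113 bases apart on chromosome V. Gene deg-3 had 14.7, 14.4 and 14.8 CPM in starved larvae, 23.8 and 21.4 at 1 h, 13.5 and 14.9 at 3 h, then 15.3, 13.4 and 11.5 at 6 h. The upstream gene des-2 had 16, 14.1 and 11.8 CPM in starved larvae, 17.8 and 23.3 at 1 h, 16 and 13.3 at 3 h, then 12.1, 17.1 and 12.9 at 6 h. Both had their highest mean at 1 h, where deg-3 was up by 0.62 ± 0.18 (adjusted p = 0.0125, a call lost without either 1 h library) and des-2 by 0.56 ± 0.21 (adjusted p = 0.0525), which missed the threshold. Their ratio changed by 0.07 with a 95% interval of -0.54 to 0.67.

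The glycolytic gene gpd-3, for glyceraldehyde 3-phosphate dehydrogenase, follows a merged unit of mai-1 and gpd-2 by 52 bases on chromosome X. It fell, with 3488, 4229 and 4888 CPM in starved larvae, 2305 and 2292 at 1 h, 1383 and 1724 at 3 h, then 1618, 1685 and 2165 at 6 h. Every fed library was below every starved one. The merged unit had 2964, 3951 and 4496 CPM starved, 2129.9 and 2131 at 1 h, 1288 and 1677 at 3 h, then 1548, 1595 and 2098 at 6 h. Near-identical copies such as gpd-2 and gpd-3 share reads, so how far the courses are alike is uncertain. The 1 h call of gpd-3 is lost without either 1 h library. The other textbook genes gpd-2, ced-9 and lin-15A are no single units that meet the rule and were not analysed here.

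The third textbook pair came apart. The gene rps-16, for a small-subunit ribosomal protein (chromosome V, 14999995 to 15000571, minus strand), lies 57 bases behind fib-1, the gene of the nucleolar methyltransferase fibrillarin. Levels of rps-16 were 1569, 1389 and 2381 CPM in starved larvae, 1545 and 1176 at 1 h, 2868 and 3205 at 3 h, then 3043, 3254 and 3602 at 6 h. Those of fib-1 were 173, 176 and 171 CPM starved, 1004 and 879 at 1 h, 1523 and 1668 at 3 h, then 1406, 1986 and 1275 at 6 h. Already at 1 h fib-1 was above every starved library, by 2.44 ± 0.21 on the log2 scale (adjusted p = 6.29e-07), while rps-16 changed by -0.39 ± 0.24 (adjusted p = 0.231), which did not pass the test. Later rps-16 was higher too, by 0.77 ± 0.24 at 3 h (a call lost with library totals, with upper quartile scaling, and without either 3 h library or starved replicate 1 or 2). It was higher by 0.89 ± 0.22 at 6 h (adjusted p = 0.0034). The ratio of rps-16 to fib-1 fell by 2.80, 2.39 and 2.21 at the 3 times (adjusted p at 1 h = 1.29e-06). Per kilobase of exon the downstream gene stood at 26.1 times the level of fib-1 in starved larvae and at 3.67, 4.83 and 5.39 times at 1 h, 3 h and 6 h. These multiples were not corrected for the number of bins per gene, and a read that spans several bins counts in each.

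**Figure D5:**
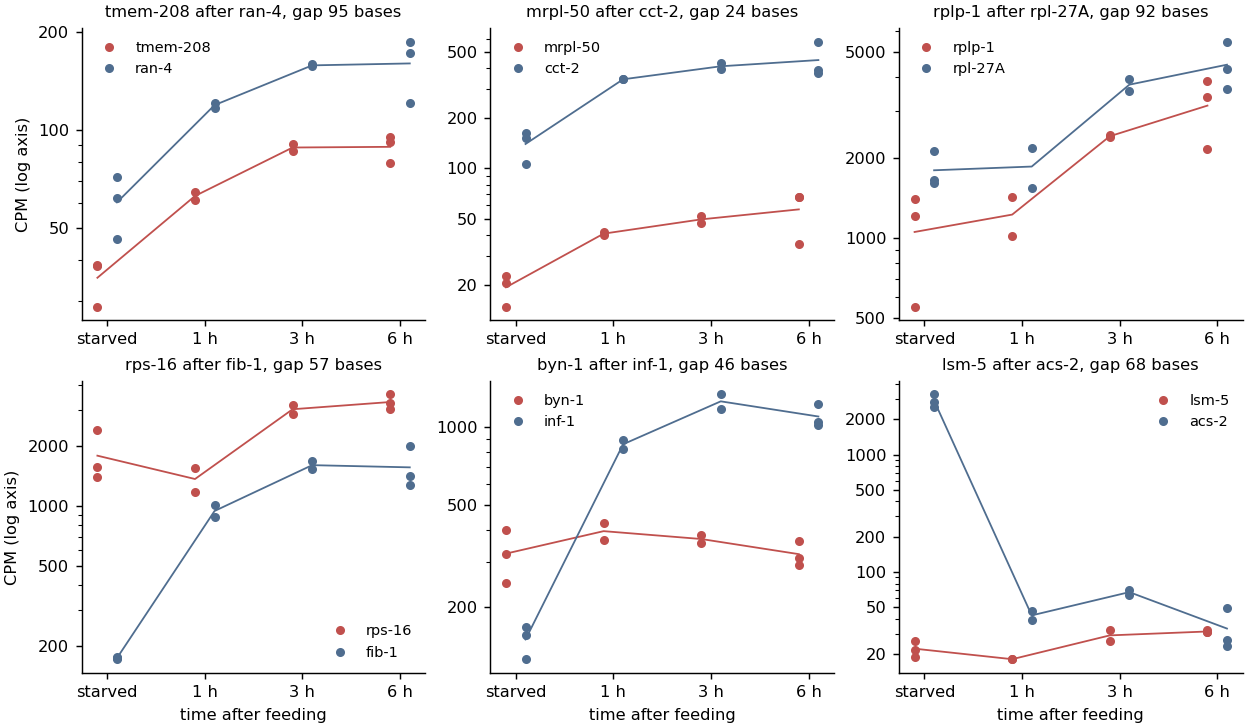
CPM of 6 downstream genes (red) and their upstream neighbours (blue) in each library (points) with group means joined by lines, on a log axis, in starved larvae and at 1 h, 3 h and 6 h fed. In the upper row both genes move together, while in the lower row fib-1 and inf-1 rise and acs-2 falls without an equal change downstream.

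Bystin gene byn-1, for ribosome assembly (chromosome III, 6931936 to 6935799, plus strand), starts 46 bases after inf-1, the gene of the translation initiation helicase eIF4A. The downstream gene had 321, 399 and 249 CPM in starved larvae, 366 and 424 at 1 h, 354 and 382 at 3 h, then 310.2, 363 and 291 at 6 h. The upstream gene inf-1 had 126, 168 and 157 CPM in starved larvae, 825 and 889 at 1 h, 1176 and 1337 at 3 h, then 1048, 1229 and 1016 at 6 h. The groups of byn-1 overlap at each time, and inf-1 was higher in every fed library, so that the ratio fell by 2.21, 2.86 and 2.86 on the log2 scale (adjusted p at 6 h = 2.27e-08).

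The largest ratio change of the named pairs was that of lsm-5, a gene for a protein of the U6 snRNP (chromosome V, 15569932 to 15570762, plus strand), 68 bases after acs-2, an acyl-CoA synthetase gene of fatty acid oxidation. Its levels were 19, 21.9 and 26 CPM in starved larvae, 18.1 and 18.3 at 1 h, 25.8 and 32.1 at 3 h, then 32.2, 30.9 and 30.7 at 6 h. The upstream gene had 2827, 2554 and 3253 CPM in starved larvae, 39.2 and 46.5 at 1 h, 70.9 and 64.2 at 3 h, then 26.6, 23.4 and 49.4 at 6 h. Every fed library of acs-2 lay far below the starved ones, with log2 fold changes of -6.07 ± 0.36, -5.41 ± 0.35 and -6.44 ± 0.31, against -0.30 ± 0.18, 0.38 ± 0.18 and 0.49 ± 0.16 for lsm-5. The ratio rose by 5.78, 5.78 and 7.01 (95% interval at 6 h 6.43 to 7.59, adjusted p = 1.35e-10). The rise of lsm-5 itself at 6 h loses its call with library totals, with upper quartile scaling and without starved replicate 1.

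Some pairs went in opposite directions. The acid phosphatase genes pho-1 and pho-4 lie 168 bases apart on chromosome II. While pho-1 rose as given above, pho-4 had 137, 120.2 and 113 CPM in starved larvae, 53.4 and 65.6 at 1 h, 39.9 and 39.8 at 3 h, then 36.9, 44.3 and 36.4 at 6 h. Their ratio rose by 4.40, 4.78 and 4.48. The channel gene del-5, of the DEG/ENaC family, had 38.4, 40.5 and 41.3 CPM in starved larvae, 17.1 and 17.5 at 1 h, 16.5 and 15.7 at 3 h, then 10.0, 9.94 and 13.3 at 6 h. Gene ttr-31, 85 bases upstream, had 15.2, 12.4 and 18.3 CPM in starved larvae, 32 and 33.8 at 1 h, 58.1 and 55 at 3 h, then 71.8, 68.9 and 51.6 at 6 h. Here the downstream gene fell in every fed library and the upstream one rose, so that the ratio fell by 3.92 at 6 h (adjusted p = 1.45e-08). In the pair pro-1 after mnk-1, a ribosome assembly gene behind a kinase gene, the ratio rose by 3.07 at 6 h, with pro-1 up by 1.50 ± 0.17 and mnk-1 changed by -1.61 ± 0.22.

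Pairs are ranked here among those in which both genes have a symbol and an average log2 CPM of at least 4. Other rises of the ratio among the 6 largest of these at 6 h were those of ufc-1 after ttr-5 (5.01), unc-101 after asah-1 (3.29) and serr-1 after rskn-1 (2.58). The Ufm1-conjugating enzyme gene ufc-1 had 24.7, 19.6 and 23.2 CPM in starved larvae, 26.1 and 21 at 1 h, 30.6 and 31.3 at 3 h, then 57.6, 66.9 and 43 at 6 h. The transthyretin-like gene ttr-5 had 170.0, 125 and 198 CPM starved, 116 and 91.5 at 1 h, 17.3 and 17.3 at 3 h, then 13.3, 11.5 and 11.8 at 6 h. Gene ufc-1 was called higher at 6 h alone (1.31 ± 0.18), and ttr-5 changed by -3.25 ± 0.22 at 3 h and -3.75 ± 0.19 at 6 h.

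Among falls of the ratio at 6 h were lact-3 after snu-13 (-4.17), sco-1 after rml-4 (-3.04) and dpf-3 after ahcy-1 (-2.27). Gene lact-3 had 52.4, 59.4 and 59.2 CPM in starved larvae, 92.4 and 90.6 at 1 h, 46.7 and 40.2 at 3 h, then 36.2, 39.4 and 42.7 at 6 h. The upstream gene snu-13, for a protein shared by snoRNPs and the spliceosome, had 68.5, 68.3 and 87.9 CPM in starved larvae, 548 and 433 at 1 h, 1091 and 990.4 at 3 h, then 1004, 1000.5 and 802 at 6 h. The upstream gene was higher in every fed library, by 2.71 ± 0.20, 3.80 ± 0.21 and 3.64 ± 0.20 on the log2 scale, and lact-3 was higher at 1 h (0.68 ± 0.15) and lower at 6 h (-0.53 ± 0.14). The peptidase gene dpf-3 rose by 0.58 ± 0.14 at 6 h, a call lost with library totals alone, where ahcy-1, the S-adenosylhomocysteine hydrolase gene of the methionine cycle, rose by 2.84 ± 0.21.

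Among pairs within the same limits the largest rises of the ratio at 1 h were those of lsm-5, pho-1 and dhrs-4 after lipl-1, and the largest falls those of rpl-23A.1 after glit-1, rps-16 after fib-1 and ufbp-1 after hsp-110. The short-chain dehydrogenase gene dhrs-4 had 21.4, 19.8 and 17.4 CPM in starved larvae, 65.9 and 53.3 at 1 h, 17.1 and 11.8 at 3 h, then 15.4, 11.7 and 10.8 at 6 h. The lysosomal lipase gene lipl-1 had 44.8, 48.9 and 33.2 CPM in starved larvae, 8.43 and 6.33 at 1 h, 24.6 and 27.8 at 3 h, then 25.2, 18.6 and 20.7 at 6 h. Their ratio rose by 4.10 at 1 h and changed by 0.22 and 0.33 at 3 h and 6 h, which did not pass the test. The ribosomal protein gene rpl-23A.1 had 962, 1402 and 1561 CPM in starved larvae, 809.7 and 644 at 1 h, 2131 and 2381 at 3 h, then 2489, 1882 and 2002 at 6 h. Upstream, glit-1 had 25.5, 27.9 and 25.6 CPM starved, 183 and 179.9 at 1 h, 114 and 123 at 3 h, then 82.4, 98.8 and 99 at 6 h. The fall of rpl-23A.1 at 1 h, -0.85 ± 0.24, loses its call without 1 h replicate 2. The gene ufbp-1, of the Ufm1 pathway, was called at no time while the chaperone gene hsp-110 rose by 2.65 ± 0.20 at 1 h.

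Chains were also read as wholes. Of 1126 chains of 2 genes with both tested, 177 had both higher and 88 both lower at 6 h, 104 had calls in opposite directions and 253 no call. Of 10916 same-strand pairs with wider gaps, 806 had both higher, 868 both lower, 1246 opposite calls and 2663 no call at 6 h. Of 324 chains of 3 or more genes, 33 had all genes higher and 7 all lower at 6 h, 67 had calls in both directions, 126 had calls of rises alone, 54 of falls alone and 37 no call. At 1 h these longer chains gave 18 all higher, 3 all lower and 46 with both directions, and at 3 h 22, 3 and 44. The number of genes that must agree differs between the 2 kinds of chain, so the shares are not comparable. Runs of 3 or more genes with wider gaps were not counted, so the longer chains have no background here.

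Of the longest chains, 2 held 7 genes, and the third named was taken by mean level from the 8 that held 6. On chromosome IV, sgo-1 is followed by ntp-1, C33H5.13, rsp-6, imp-3, tag-322 and tag-321. The log2 fold changes at 6 h were 0.69 ± 0.18, -0.61 ± 0.23, 0.94 ± 0.16, -0.996 ± 0.21, 0.64 ± 0.19 and -0.12 ± 0.20 for the 6 downstream genes in that order. So rsp-6 rose while imp-3, its neighbour 337 bases on, fell, with 79.2, 53.4 and 54.9 CPM in starved larvae, 27.8 and 29.4 at 1 h, 39.7 and 30.0 at 3 h, then 40.6, 24.3 and 29.1 at 6 h. The ratio of imp-3 to rsp-6 fell by 2.42 at 1 h (adjusted p = 2.69e-05). Calls at 6 h of ntp-1, C33H5.13 and tag-322 are lost under 1 or more alternatives.

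On chromosome I, T27F6.6 is followed by T27F6.7, K11D2.1, asah-1, unc-101, mter-4 and K11D2.4. The acid ceramidase gene asah-1 had 314, 335 and 360.4 CPM in starved larvae, 167 and 156 at 1 h, 93.8 and 114 at 3 h, then 78.7, 92.4 and 111 at 6 h. Gene unc-101, for a clathrin adaptor subunit, 385 bases behind it, had 13.5, 12.3 and 17.7 CPM in starved larvae, 25.5 and 29.2 at 1 h, 35.8 and 35.9 at 3 h, then 40.4, 40.3 and 36.6 at 6 h. Fed libraries of asah-1 lay below and those of unc-101 above the starved ones at each time. Gene mter-4, 68 bases behind unc-101, went with it, with log2 fold changes at 6 h of 1.59 ± 0.22 and 1.43 ± 0.16. The ratio of mter-4 to unc-101 changed by 0.11 (95% interval -0.45 to 0.68).

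On chromosome II, egli-1 is followed by eat-3, wbp-2, eif-3.F, scp-1 and ttll-12 at gaps of 40 to 93 bases. At 1 h all 5 downstream genes and egli-1 were higher, by 1.51 ± 0.29, 0.82 ± 0.16, 1.44 ± 0.20, 0.67 ± 0.19 and 1.05 ± 0.17 for the downstream genes in order and 1.91 ± 0.21 for egli-1. The call of scp-1 is lost without either 1 h library. At 6 h initiation factor gene eif-3.F had stayed up at 1.65 ± 0.19, while wbp-2 and scp-1 stood at 0.21 ± 0.14 and 0.05 ± 0.17, neither called. The mitochondrial fusion gene eat-3 had 57.2, 54.9 and 26.5 CPM in starved larvae, 121 and 142 at 1 h, 91 and 69.9 at 3 h, then 76.5, 107 and 59.7 at 6 h.

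Levels were compared between the genes of a pair per length of exon. A read that spans several bins counts in each, and the number of bins per gene was not corrected for. The values below therefore depend in part on how genes are divided into bins. In starved larvae the downstream gene had a median of -0.34 on the log2 scale relative to its upstream neighbour, in CPM per kilobase, and at 1 h, 3 h and 6 h it had -0.42, -0.42 and -0.47. Same-strand pairs with wider gaps had medians of 0.14, 0.09, 0.08 and 0.09 at the 4 times. Levels of the 2 genes were within 2-fold of each other in 36.3%, 35.4%, 33.5% and 33.5% of close pairs, beside 28.2%, 27.8%, 26.6% and 25.7% of wider pairs. By place in the chain, first genes had a median of 15.2 CPM per kilobase in starved larvae, genes in place 2 had 11.7, those in place 3 had 13.9 and later ones 12.6, beside 10.5 for all single genes. At 6 h the medians were 17.5, 13.5, 17.3 and 15, beside 10.7.

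The authors' own FPKM values, made from the same reads with the libraries of a time pooled, gave the same directions. The comparison covered 1849 of the 1909 pairs. Among those whose ratio was called here, the authors' deposited table had the same sign of change in 623 of 623 pairs at 1 h, 725 of 726 at 3 h and 884 of 884 at 6 h. That table is no independent measurement, and it was made with a stranded setting.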

How the data were processed

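Polyadenylated RNA of whole larvae was sequenced on the SOLiD platform, and the values here start from files deposited by the authors. The deposited counts are whole reads per exonic bin, counted by the authors with the DEXSeq script on WS210 gene models after alignment with Bowtie 0.12.7 and TopHat, per the labels and the submitters' processing notes. Reads from which a spliced leader had been removed are included, and a read that spans several bins counts in each. The authors' FPKM values are 1 per gene and time, from their cuffdiff run on pooled libraries, per the deposit's own notes, and served as a cross-check. Bins were summed per gene unit, and 148 units with low counts were removed by edgeR's filterByExpr. Lines that name no bin were left out, and the reads in no bin among them made 8.35% to 11.4% of a library's counts. In that total a read in several bins counts more than once.

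Genes were tested with edgeR 4.0.16 (quasi-likelihood, TMM, 4 groups, all 10 libraries, 6 residual degrees of freedom) in R 4.3.3. Ratios of neighbours were tested with limma 3.58.1 on the difference of log2 CPM with a prior count of 2. Benjamini-Hochberg adjustment ran over all units or pairs, with a threshold of 0.05. Errors after ± are standard errors for fold changes. In simulated data, 50 genes were changed at 6 h for each fold and all other genes were left unchanged. The changed genes were downstream genes above a minimum level whose upstream neighbour was no downstream gene. All genes were given the same dispersion, so recovery for genes of low or uneven counts was not measured. Of genes changed 2-fold upward 76% were called and of those changed 4-fold 100%, against 24% and 98% for the ratio. For a fall to 0.5 the shares were 72% and 36%. In the real data 52.0% of all units were called at 6 h, so recovery there may differ. Alternatives were DESeq2 1.42.0, other scalings, no filter, a barcode set as block, other gap limits, annotation filters and leaving out each library.

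The genes, gene lists and rules were chosen with earlier results of these data known. Named are textbook operon genes, the 5 largest rises and falls per time (symbol, mean log2 CPM of 4 or more, adjusted p under 0.05, groups that do not overlap), the pairs with the 6 largest rises and falls of the ratio at 6 h and the 3 largest at 1 h (symbols and mean log2 CPM of at least 4 for both genes, adjusted p under 0.05), the 8 most alike pairs, the 3 longest chains and the 2 most abundant downstream genes of each list with 5 or more. Not all of the last kind are described. Symbols came from a table of a later annotation, matched by sequence name for 1894 of the 1927 genes. No sequence is shown, since no genome of the files' build was used here.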

Additional observations from a re-analysis of the deposited data

How the results depend on the processing

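Counts of called downstream genes and of changed ratios moved by more than 1.5 times in a few fits. With library totals alone, 432 were higher and 582 lower at 6 h. Leaving out each library in turn, lower genes numbered 162 to 321 at 1 h and 190 to 340 at 3 h, and changed ratios 374 to 679 at 1 h and 471 to 772 at 3 h. The lowest values came without a library of the time itself, which leaves that time with 1 library, whose variation is taken from the other groups. The remaining counts stayed within 1.5 times of the reported ones under the alternatives run. With the barcode set as replicate block, 500, 573 and 695 were higher and 333, 349 and 419 lower at 1 h, 3 h and 6 h. In the joint test 1057 pairs then had a changed ratio. The sets were formed here by number, as barcodes 1 to 4, 5 to 8, and 13 with 16. The last set holds only a starved and a 6 h library. Sample titles give a barcode and no replicate number, so no pairing is assumed. DESeq2 gave 481, 557 and 651 higher and 335, 355 and 400 lower. Depth limits the 12 genes that were not tested.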

Other observations

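Neighbours on opposite strands whose starts face each other were set beside the same-strand pairs. Among 488 head-to-head pairs within 500 bases the median r over 10 libraries was 0.435, and in 331 of them without overlap on the other strand it was 0.423. Where both genes of such a pair were called, 78.8%, 81.5% and 84.0% went the same way at 1 h, 3 h and 6 h, against 79.5%, 80.0% and 74.8% of downstream genes and their upstream neighbours. The difference was not tested.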
